A study of Mus musculus with 9 samples.

Results

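A set of 8 genes of the epidermal growth factor (EGF) family was followed by name through a deposited table of 25239 genes: the receptor genes Egfr and Erbb2 and the ligand genes Hbegf, Areg, Ereg, Tgfa, Btc and Nrg1. All 8 genes were found in the table. Polyadenylated RNA had been sequenced from primary mouse cortical astrocytes, glial cells isolated from cortices of pups at postnatal day 4 and kept in medium with horse and fetal bovine serum. There were 3 groups of 3 libraries each. For day 3, hydrogen peroxide was applied at 200 µM during 3 h and cells were collected 72 h after the wash. For day 1, the same exposure was followed by collection at 24 h. Control cultures had no peroxide, and the labels give no harvest time for them, no mouse strain and no origin of the replicates. The p-values therefore refer to the spread among these libraries alone, and that spread may be technical. With 1 control group of unknown harvest time, effects of peroxide and of time in culture cannot be told apart.

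EGF family ligands are made as membrane-anchored precursors, and most are released from the cell surface by metalloproteases. Heparin-binding EGF-like growth factor, transforming growth factor alpha, amphiregulin, epiregulin and betacellulin bind the receptor EGFR, whereas neuregulin 1 binds ERBB3 and ERBB4. ERBB2 has no known soluble ligand and acts as the preferred partner of the other receptors. In astrocytes, EGFR signalling is known for its part in proliferation and in the change of shape that accompanies reactivity.

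The libraries held 30545004 to 36749577 reads on day 3, 23032594 to 27850348 on day 1 and 30278210 to 38414668 in control. Astrocyte identity was checked with 9 markers (among them Gfap, Aqp4 and Slc1a3), none of which averaged under 1 FPKM; their sum was 2546 to 2581 FPKM on day 3, 2049 to 2312 on day 1 and 2772 to 2841 in control. FPKM, the unit of the deposited table, divides fragments by gene length and by the library total, so levels can be compared between genes. Reads of Rn45s, the 45S ribosomal RNA precursor, made up 9.15% to 11.1% on day 3, 7.67% to 9.36% on day 1 and 9.41% to 11.9% in control, which separates the day 1 and control libraries. With day 3 replicate 2 and control replicate 1, where that share was highest, left out, the same numbers of members passed against control, 4 on day 1 and 3 on day 3, and 3 in place of 4 passed between the days. On day 1, 7235 of all genes tested then passed against control, beside 7839 with all libraries. A steady number of members is thus no result about the family.

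**Figure D1:**
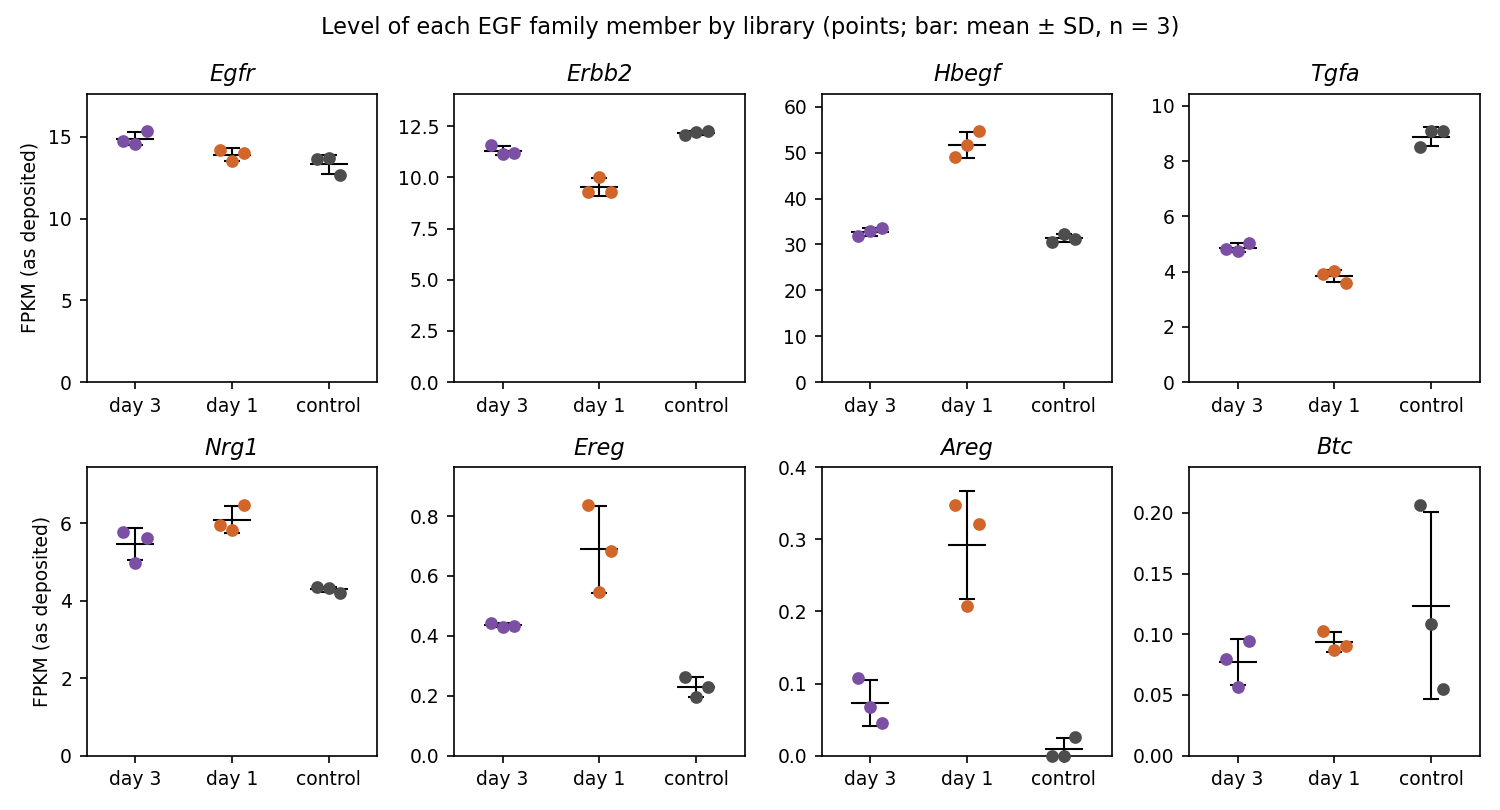
FPKM of the 8 members in each library (points) with the group mean and SD (bars, n = 3), each panel on its own axis from 0. Hbegf, Ereg and Areg were highest on day 1, Tgfa and Erbb2 were lowest on day 1, and the groups of Btc overlapped.

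Hbegf was the most abundant member in every library. On day 3 it was at 31.9, 33.0 and 33.5 FPKM, on day 1 at 49.0, 51.6 and 54.7 FPKM, and in control at 30.5, 32.2 and 31.3 FPKM. The day 1 libraries lay above all others, and the day 3 range overlapped the control range. In control the order continued with Egfr, Erbb2, Tgfa and Nrg1, at means of 13.3, 12.2, 8.88 and 4.29 FPKM, and the ranges of neighbours in that order did not overlap. Ereg (0.230 FPKM), Btc (0.123) and Areg (0.00871) stood far below, with Ereg and Btc overlapping. On day 1 the order of Tgfa and Nrg1 was the other way round (3.84 and 6.09 FPKM), and Areg (0.292) was above Btc (0.0936). On day 3, Nrg1 (5.46 FPKM) and Tgfa (4.86 FPKM) overlapped, as did Btc (0.0771) and Areg (0.0733).

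The fit across genes took the 12611 genes that averaged at least 1 FPKM, and 5 of the 8 members were among them. Fold changes are from log2(FPKM + 0.1) after rescaling between libraries, tested with limma; called means an adjusted p (Benjamini-Hochberg, all genes tested) under 0.05. On this scale the change of low genes is understated. On day 1, 4 of these 5 members were called against control, 2 higher and 2 lower, beside 62.2% of all genes tested. On day 3, 3 were called against control, 2 higher and 1 lower, beside 13.8% of all genes. Between day 3 and day 1, 4 were called, 2 higher and 2 lower, beside 56.2%. With so many genes called, the number of members called on day 1 is no result about the family, and the sizes and directions of single genes carry the account. In bulk RNA, fewer cells of a type and less RNA per cell cannot be told apart.

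**Figure D2:**
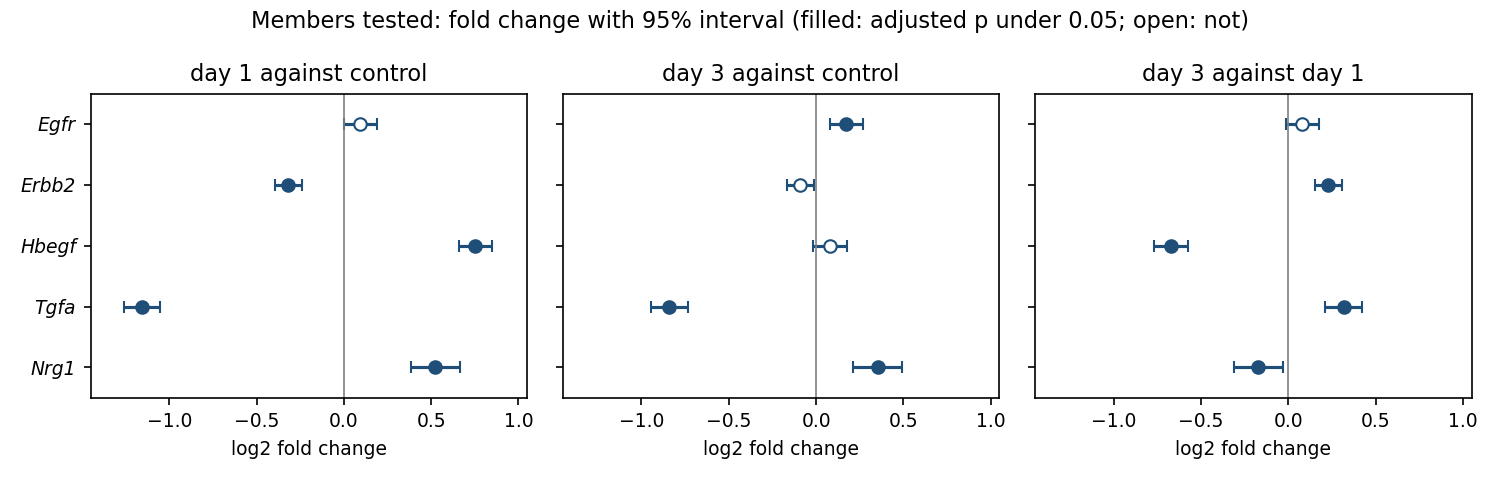
Log2 fold change (x axis) of the 5 members tested, with the 95% interval from limma, for day 1 against control, day 3 against control and day 3 against day 1. Filled points passed an adjusted p of 0.05. Hbegf was 0.75 above control on day 1 and 0.08 above it on day 3, while Tgfa was lower at both times.

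Of the receptors, Egfr, which binds most of the ligands listed here, changed little. It was at 14.7, 14.6 and 15.3 FPKM on day 3, at 14.2, 13.5 and 14.0 FPKM on day 1 and at 13.6, 13.7 and 12.7 FPKM in control. All day 3 libraries were above all control libraries, and the day 1 and control libraries overlapped. Egfr rose 1.13-fold on day 3 against control (95% interval 1.06 to 1.20, limma adjusted p = 0.0231), a call that was lost without day 3 replicate 3 (adjusted p = 0.0857) or control replicate 3 (0.0737). On day 1 the ratio to control was 1.07 (0.999 to 1.14, adjusted p = 0.0796), and it passed without day 1 replicate 2 (0.0412), without control replicate 1 (0.0479) and in limma-voom on the recovered reads (0.0442). Limma-voom with at least 10 reads over the libraries called 7 members on day 1, beside 50.7% of genes, and Egfr was among them (0.0285). The day 3 level was 1.06 times that of day 1 (0.990 to 1.13, adjusted p = 0.137).

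Erbb2, the co-receptor, was lower on day 1. Its levels were 11.6, 11.2 and 11.2 FPKM on day 3, 9.28, 10.0 and 9.31 FPKM on day 1 and 12.1, 12.2 and 12.3 FPKM in control, and no group overlapped another. Over all genes tested, the groups did not overlap for 30.3% on day 3 against control, 66.1% on day 1 against control and 61.8% on day 3 against day 1. Erbb2 fell 1.25-fold on day 1 against control (limma adjusted p = 1.83e-05) and was 1.17-fold higher on day 3 than on day 1 (adjusted p = 0.000268). Against control the day 3 ratio was 0.940 (95% interval 0.890 to 0.991, adjusted p = 0.121). An exon of Erbb2 on the plus strand of chromosome 11 (98412484 to 98437716, GRCm38.p6) overlaps one of Mien1 on the minus strand. With strand handling not given in the sources used here, reads of the overlap cannot be assigned. Within libraries, the ratio of Egfr to Erbb2 FPKM was 1.27 to 1.37 on day 3, 1.35 to 1.53 on day 1 and 1.03 to 1.13 in control.

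Hbegf encodes a heparin-binding ligand that is anchored in the membrane until it is shed. It rose 1.69-fold on day 1 against control (95% interval 1.58 to 1.80, limma adjusted p = 1.74e-07), and 337 of the 12611 genes rose further. On day 3 it was 1.59-fold lower than on day 1 (adjusted p = 6.70e-07). Its ratio to control was then 1.06 (0.989 to 1.13, adjusted p = 0.261).

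Tgfa, which encodes the EGFR ligand transforming growth factor alpha, moved the other way. It was at 4.80, 4.74 and 5.04 FPKM on day 3, at 3.91, 4.01 and 3.60 FPKM on day 1 and at 8.49, 9.08 and 9.08 FPKM in control. Every treated library was below every control library, and day 3 lay above day 1 without overlap. Tgfa fell 2.23-fold on day 1 (95% interval 2.08 to 2.40, limma adjusted p = 1.86e-08) and 1.79-fold on day 3 (1.66 to 1.93, adjusted p = 4.94e-06), both against control. On day 3, 48 of the 12611 genes fell further. Between the days it was 1.25-fold higher on day 3 (adjusted p = 0.000220).

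Markers of the oligodendrocyte lineage moved with Tgfa. The summed level of 8 such markers was 54.7 to 55.1 FPKM on day 3, 37.2 to 41.3 on day 1 and 95.9 to 103.7 in control. Of the 7 tested, 6 were lower and 1 higher on day 1, and 6 were lower on day 3, against control. Over all genes tested, 31.1% were lower and 31.1% higher on day 1, and 6.45% were lower on day 3. None of the 8 markers was at 0 in every library. The sum of the 9 astrocyte markers, given above, was likewise lowest on day 1 and highest in control, without overlap of groups. Of these 9, 6 were lower and 2 higher on day 1, and 3 were lower on day 3, against control. The part of either marker list in the result for Tgfa was not tested. Mural markers moved with Hbegf: the summed level of 6 was 1079 to 1169 FPKM on day 3, 2128 to 2200 on day 1 and 1155 to 1252 in control, with 4 of 5 tested higher on day 1. The sum of 5 fibroblast markers was 516.6 to 640.3 FPKM on day 3, 1015 to 1100 on day 1 and 441.5 to 477.0 in control, although on day 1 only 1 of 4 tested was higher and 3 were lower. Their part in the result for Hbegf was not tested either.

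Neuregulin 1, encoded by Nrg1, signals through other receptors of the family and is known for its part in glial and neuronal development. Nrg1 was at 5.77, 4.99 and 5.62 FPKM on day 3, at 5.95, 5.83 and 6.48 FPKM on day 1 and at 4.34, 4.32 and 4.21 FPKM in control. The treated libraries all lay above the control libraries. Nrg1 rose 1.44-fold on day 1 (95% interval 1.30 to 1.58, limma adjusted p = 3.64e-05) and 1.28-fold on day 3 (1.16 to 1.41, adjusted p = 0.00460), both against control. It was 1.13-fold lower on day 3 than on day 1 (adjusted p = 0.0391). That last call was lost without day 3 replicate 2 (adjusted p = 0.150) or 3 (0.0561), day 1 replicate 1 (0.0522) or 3 (0.141), or control replicate 2 (0.0527), and with FPKM as deposited (0.0571). The table gives 1 value per gene, so the isoforms of Nrg1 and Egfr were not told apart.

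The make-up of the RNA of the 6 ligand members shifted with these changes. Nrg2, a ligand gene outside the 6, is not in the sum. Its means were 2.56 FPKM on day 3, 1.68 on day 1 and 3.14 in control. Hbegf made up 74.0% to 76.2% of the summed FPKM of the 6 ligands on day 3, 81.5% to 83.0% on day 1 and 69.7% to 70.2% in control. The share of Tgfa was 11.0% to 11.3% on day 3, 5.46% to 6.51% on day 1 and 19.4% to 20.2% in control. Hbegf thus exceeded Tgfa 6.64 to 6.95 times on day 3, 12.5 to 15.2 times on day 1 and 3.45 to 3.60 times in control. These ratios are taken within a library and do not depend on scaling between libraries; they were chosen after the values were seen and carry no test. The sum itself was 43.1 to 44.8 FPKM on day 3, 60.1 to 65.9 on day 1 and 43.8 to 45.9 in control.

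**Figure D3:**
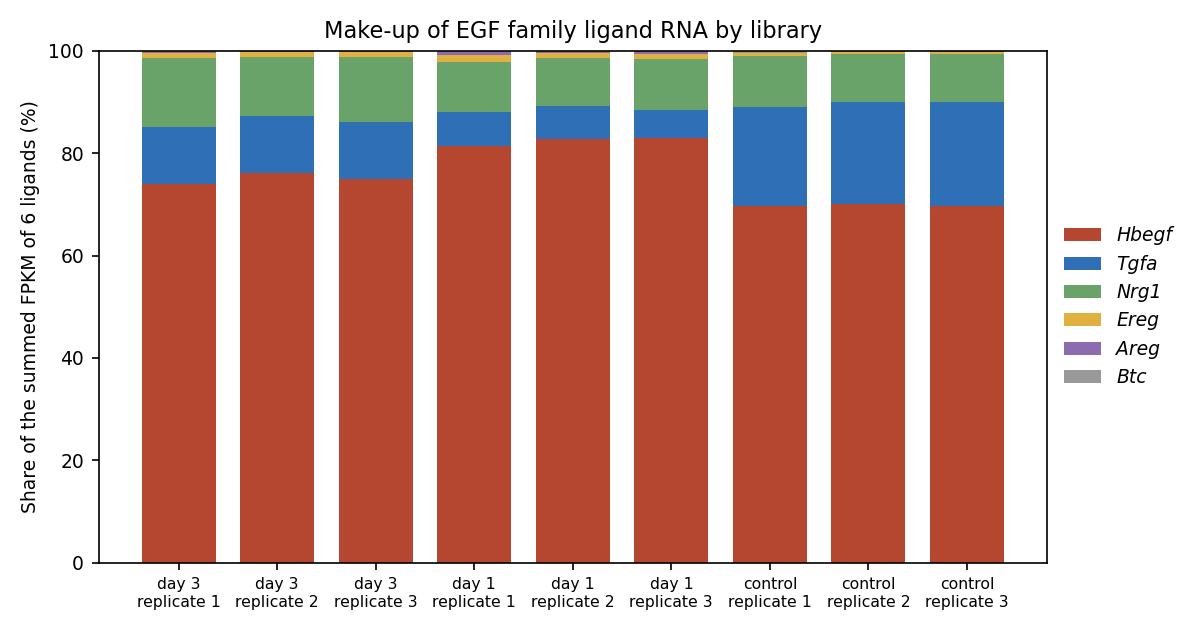
Share of each ligand gene in the summed FPKM of the 6 ligand genes (y axis, percent) in each library. The Hbegf part is largest in the day 1 libraries (81.5% to 83.0%) and the Tgfa part largest in the control libraries (19.4% to 20.2%).

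Areg, Ereg and Btc averaged under 1 FPKM and were outside the fit. They are neighbours: with Epgn, which encodes epigen, they are the 4 protein-coding genes that RefSeq places between 91027517 and 91402994 on chromosome 5 (GRCm38.p6), a span of 375.5 kb. Their values rest on few reads, which were worked out from the FPKM. For them an exact permutation test of 3 libraries against 3 was used, two-sided, which cannot go below p = 0.1, and ratios of pooled reads, each divided by the library totals, are given with exact 95% intervals that cover counting error only.

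Ereg encodes epiregulin, a ligand of EGFR and ERBB4. It was at 0.443, 0.429 and 0.434 FPKM on day 3, at 0.838, 0.547 and 0.682 FPKM on day 1 and at 0.264, 0.195 and 0.230 FPKM in control. No group overlapped another, with day 1 highest and control lowest. Its reads numbered 187 on day 3, 210 on day 1 and 94 in control. Relative to library totals it was 3.00 times control on day 1 (2.34 to 3.87) and 1.92 times control on day 3 (1.49 to 2.48), each at the smallest exact permutation p of 0.1. When the filter was dropped it passed limma in both comparisons, at 2.42-fold on day 1 (adjusted p = 0.000223) and 1.64-fold on day 3 (adjusted p = 0.0324).

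Areg, the gene of amphiregulin, was nearly undetected in control. Its reads numbered 4, 3 and 2 in the day 3 libraries, 10, 7 and 9 in the day 1 libraries, and 0, 0 and 1 in the control libraries. The groups did not overlap in FPKM, at 0.108, 0.0674 and 0.0448 on day 3, 0.348, 0.207 and 0.322 on day 1 and 0, 0 and 0.0261 in control. Relative to library totals the day 1 level was 34.9 times control, but with a single control read the interval runs from 5.74 to 1433; on day 3 the ratio was 8.68 (1.20 to 380). Both comparisons gave the smallest exact permutation p of 0.1. With no filter Areg passed limma on day 1 against control, with an estimate of 3.62-fold (adjusted p = 6.33e-05). With at least 10 reads over the libraries it passed limma-voom, with an estimate of 17.1-fold (5.95 to 49.15, adjusted p = 3.53e-05). On day 3 against control neither passed (adjusted p = 0.0796 and 0.0704). Over 12 alternatives the log2 change of Areg on day 1 against control ranged from 0.36 to 4.29, so its size depends on the processing.

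Btc, the gene of betacellulin, showed no such pattern. Its FPKM were 0.0797, 0.0569 and 0.0946 on day 3, 0.103, 0.0874 and 0.0906 on day 1 and 0.207, 0.109 and 0.0552 in control, with all groups overlapping. From 20 reads on day 1 and 35 in control this ratio was 0.768 (0.420 to 1.37, exact permutation p = 0.7), and on day 3, from 23 reads, it was 0.633 (0.357 to 1.10, exact permutation p = 0.5). The difference on day 1 changed sign without control replicate 1. Epgn had 2 reads on day 3, 7 on day 1 and 4 in control. Its ratio to control was 0.482 on day 3 (0.0436 to 3.36) and 2.35 on day 1 (0.598 to 11.0). A change in Btc or Epgn within these intervals was not detectable at this depth.

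The 250 bases before the RefSeq start site are shown for Areg and Tgfa, the EGFR ligand genes that moved furthest up and down on day 1 among those with an entry (GRCm38.p6, plus strand, chr5:91139349-91139598 and chr6:86194972-86195221). Of the 8 members, 5 have an entry; Hbegf, Ereg and Nrg1 are named only. The start site of the Tgfa entry lies inside the RefSeq gene. Capitals mark matches, on either strand, to the cyclic AMP response element TGACGTCA, the AP-1 motif TGANTCA, the GC box GGGCGG, the TATA box TATAAA and the TEAD motif GGAATG.
Areg: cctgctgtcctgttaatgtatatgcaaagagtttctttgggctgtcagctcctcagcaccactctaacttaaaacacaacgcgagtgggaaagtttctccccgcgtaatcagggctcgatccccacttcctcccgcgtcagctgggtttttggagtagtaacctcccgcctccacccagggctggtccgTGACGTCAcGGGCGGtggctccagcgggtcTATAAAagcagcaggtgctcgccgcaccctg
Tgfa: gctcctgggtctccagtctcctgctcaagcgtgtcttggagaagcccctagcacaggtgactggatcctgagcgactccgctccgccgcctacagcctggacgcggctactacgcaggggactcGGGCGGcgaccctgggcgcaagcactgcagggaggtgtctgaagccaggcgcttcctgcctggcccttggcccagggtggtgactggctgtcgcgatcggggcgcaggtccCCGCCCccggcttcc

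The Areg stretch holds a cyclic AMP response element that begins 61 bases before the start site, a GC box at 52 and a TATA box at 31, and these matches do not overlap. The Tgfa stretch holds 2 GC boxes, at 126 and 15 bases before the start site of its entry. Both lie inside the RefSeq gene, which begins at 86195038. Of 32851 mouse promoter stretches of the same length, 1.55% hold the cyclic AMP response element, 32.7% the GC box, 12.4% the TATA box, 6.75% the AP-1 motif and 12.6% the TEAD motif. Neither stretch holds the AP-1 or TEAD letters. In the other entries, the Egfr stretch holds 1 GC box, the Erbb2 stretch 1 TEAD motif and the Btc stretch none of the 5.

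The neuregulin receptor genes Erbb4 and Erbb3 lay below control on both days. Erbb4 was at 1.13, 1.20 and 1.06 FPKM on day 3, at 0.931, 1.12 and 0.945 FPKM on day 1 and at 1.88, 1.80 and 1.54 FPKM in control. It fell 1.64-fold on day 1 (limma adjusted p = 0.000433) and 1.48-fold on day 3 (adjusted p = 0.0121), both against control; the day 3 call was lost without control replicate 1 (adjusted p = 0.0533) or without the 2 libraries highest in Rn45s (0.0611). Erbb3, outside the fit, was at 0.666 ± 0.0664 FPKM on day 3, 0.543 ± 0.0556 on day 1 and 0.782 ± 0.0157 in control (SD, n = 3 each), with both treated groups below control and the smallest exact permutation p of 0.1 for each. Nrg2, another neuregulin gene, was at 2.56 ± 0.160 FPKM on day 3, 1.68 ± 0.199 on day 1 and 3.14 ± 0.0442 in control. It fell 1.79-fold on day 1 (adjusted p = 1.56e-05), whereas Nrg1 rose, and its day 3 ratio to control was 0.831 (0.724 to 0.955, adjusted p = 0.0788). The day 3 difference of Nrg2 passed in 4 alternatives: without day 1 replicate 1 (adjusted p = 0.0451), with only the libraries compared (0.0410), and in limma-voom on recovered reads (0.00431) or on those with at least 10 reads over the libraries (0.00401). The oligodendrocyte lineage and astrocyte markers given beside Tgfa had lower sums on both days as well. The sum of 4 ependymal markers was 103.4 to 118.4 FPKM on day 3, 67.0 to 75.2 on day 1 and 113.9 to 125.1 in control. Of the ependymal markers, 3 of 3 tested were lower on day 1, beside 31.1% of all genes. The part of any of these lists in the results for Erbb4, Erbb3 and Nrg2 was not tested. Egf, Nrg3 and Nrg4 had group means of 0.0912 to 0.289 FPKM, and their groups overlapped in every comparison.

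**Figure D4:**
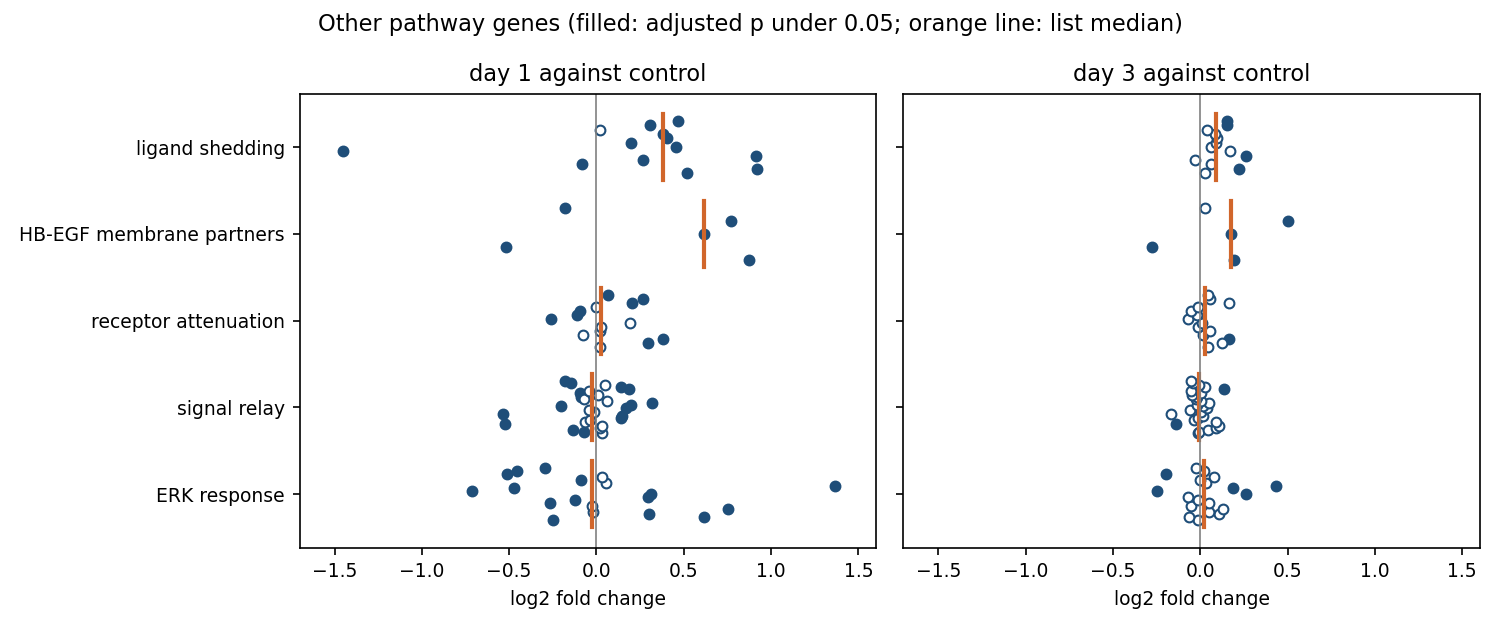
Log2 fold change against control (x axis) of every tested gene in 5 lists of other pathway genes on day 1 and day 3; filled points passed an adjusted p of 0.05 and orange lines mark list medians. The medians of the shedding list (0.38) and the HB-EGF partner list (0.62) stood above 0 on day 1, while the other lists were centred near 0.

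The list of ligand shedding holds sheddases, their cofactors and the inhibitor gene Timp3. Of its 13 genes tested on day 1, 10 rose and 2 fell against control, with a median log2 fold change of 0.38 beside -0.0014 over all genes, of which 31.1% rose and 31.1% fell. Among the 10 was Timp3 (1.38-fold, limma adjusted p = 1.20e-07), whose product inhibits sheddases, so the count is not one of genes that all act toward release. Adam10, a sheddase gene of the list, was at 55.0 ± 0.740 FPKM on day 1 and 39.2 ± 1.28 FPKM in control (SD, n = 3 each), a 1.43-fold rise (limma adjusted p = 2.13e-07). Adam12, a metalloprotease known to release HB-EGF, rose 1.89-fold and Adam19, known to process neuregulins, rose 1.88-fold. Adam17, also a sheddase gene of the list, rose less, 1.20-fold (limma adjusted p = 0.000174). On day 3 the ratio of Adam17 to control was 0.980 (limma adjusted p = 0.691). Adam8 fell 2.73-fold to 6.34 ± 0.265 FPKM on day 1, against 17.9 ± 0.881 FPKM in control, and was 3.07-fold higher on day 3 than on day 1. Microglia markers, of which 6 fell and 1 rose among 7 tested on day 1, had summed levels of 125.9 to 159.2 FPKM on day 3, 62.7 to 67.6 on day 1 and 154.1 to 168.9 in control, with P2ry12 alone under 1 FPKM; their part in the result for Adam8 was not tested. Adam15 fell 1.06-fold, a call lost without day 1 replicate 2 (adjusted p = 0.0528) or control replicate 3 (0.0522).

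Of 5 membrane partners of HB-EGF, 3 rose and 2 fell on day 1 against control, beside 31.1% of all genes each way. Cd44, whose heparan sulfate forms hold HB-EGF at the cell surface, rose 1.84-fold to 50.9 ± 0.464 FPKM on day 1, against 28.3 ± 0.689 FPKM in control. The heparan sulfate proteoglycan genes Sdc1 and Gpc1 rose 1.71-fold and 1.53-fold, and Sdc4 fell 1.13-fold. Cd9, a tetraspanin that binds the HB-EGF precursor, fell 1.43-fold to 323 ± 11.0 FPKM, against 474 ± 2.57 FPKM in control (limma adjusted p = 1.43e-07). The mural and fibroblast marker sums given beside Hbegf were higher on day 1 too, although 3 of the 4 fibroblast markers tested were lower. The part of either marker list in the rises of the shedding and partner lists was not tested.

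Of 14 genes listed for receptor attenuation, 5 rose and 3 fell on day 1 against control, beside 31.1% of all genes each way. The counts were 4 and 1 when the 6 compared libraries were fitted alone. Among the 5 was Usp8 (1.045-fold, limma adjusted p = 0.0426), and not every gene of the list need act toward attenuation. Errfi1, an inhibitor of the EGFR kinase induced by EGFR signalling, was at 6.51 ± 0.0441 FPKM on day 1 and 5.10 ± 0.272 FPKM in control, a 1.30-fold rise (limma adjusted p = 6.64e-05). The phosphatase gene Ptpn1 fell 1.20-fold. The other falls, of Ptprj and Rnf41, were 1.08-fold and 1.07-fold and were lost in 5 and 3 of the 9 fits that left out 1 library. Of 28 relay genes, 7 rose and 9 fell, with a median log2 fold change of -0.02, again beside 31.1% of all genes each way. Without control replicate 1, 7 rose and 5 fell. These counts are near the background and are no result about either list. The largest changes among them were falls of Ksr1, a scaffold of the ERK cascade (1.45-fold), and of the docking protein gene Gab1 (1.44-fold, to 23.0 ± 0.833 FPKM on day 1, against 33.9 ± 0.678 FPKM in control).

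Among 19 tested genes that respond to ERK signalling, 6 were called higher and 9 lower on day 1, beside 31.1% of all genes each way, with a median log2 fold change of -0.02. Plaur, the urokinase receptor gene, rose 2.57-fold to 7.74 ± 0.708 FPKM on day 1, against 3.00 ± 0.117 FPKM in control (limma adjusted p = 2.53e-07). The immediate-early gene Egr1 rose 1.68-fold and the ERK phosphatase gene Dusp4 rose 1.53-fold. Myc fell 1.64-fold, the feedback inhibitor gene Spry1 fell 1.43-fold and Phlda1 fell 1.39-fold.

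By day 3 fewer of these genes differed from control. The counts that follow stand beside 7.37% of all genes higher and 6.45% lower. Of 5 HB-EGF partners, 4 were called: Sdc1 (1.41-fold), Cd44 (1.14-fold) and Gpc1 (1.13-fold) were higher and Cd9 (1.21-fold) was lower. Of 13 genes of the shedding list, 4 were higher and none lower: Adam19 (1.20-fold), Adam12, Rhbdf2 and the inhibitor gene Timp3 (1.11-fold). Adam12 was lost in 7 and Rhbdf2 in 9 of the 9 fits that left out 1 library. The count was 2 without day 3 replicate 1, day 1 replicate 1 or 2, or control replicate 1, 2 or 3. Of the ERK response genes, 3 were higher and 2 lower of 19, among them Plaur (1.35-fold higher) and Myc (1.19-fold lower), and 3 were called without day 3 replicate 3 or control replicate 2 or 3. Receptor attenuation had 1 gene higher of 14 (Errfi1, 1.12-fold), lost in 7 of the 9 fits that left out 1 library. The relay had 1 higher (Shc1, 1.10-fold) and 1 lower (Gab1, 1.10-fold) of 28, lost in 3 and 4 of those fits. None of the relay list was called without day 3 replicate 1 or 3 or control replicate 1. The attenuation and relay counts are not above the background and are no result about either list. Between the days, 12 of the 13 genes of the shedding list were called, 2 higher and 10 lower on day 3 than on day 1, Timp3 (1.24-fold) among the lower, beside 27.9% of all genes higher and 28.4% lower.

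For each member tested, the genes of at least 5 FPKM whose log2 levels followed it most closely over the 9 libraries were listed from 8812 genes, as a description. The libraries are shared by all these correlations and fall into 3 groups, so high values arise easily. Hbegf was followed by Tceal9 (Pearson r = 0.999), Rasa1 (0.997) and Atxn10 (0.997). Tgfa was followed by Bcas1 (0.997), Stmn1 (0.994) and Sema3d (0.991). Erbb2 was followed by Nck2 (0.993), Patz1 (0.992) and Ntm (0.991), and Nrg1 by Tmtc3 (0.985), Cd80 (0.983) and Rictor (0.983). For Egfr the closest genes were Arid5b (0.959), Arhgef17 (0.910) and Relb (0.904).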

How the data were processed

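The authors deposited FPKM for each library separately. The tools named are STAR 2.7.3a, cutadapt 2.6, DESeq2 and FastQC 0.12.1, and the builds mm10 and GRCm38, per the submitters' processing notes. Counting program, annotation and strand use: not given in the sources used here. Each of the 9 columns was matched to its library by the description in the labels. Reads were worked out from the deposited FPKM with a total per library and a length per gene. For 2198 of the 20350 genes above 0 the GENCODE M21 exon length gave whole reads (within 0.01); for the other 18152 the smallest length that did so was chosen, so their whole reads are set by that choice and could be too few by a common factor. The length used was 1215 bases for Areg, 4136 for Ereg, 2875 for Btc and 1700 for Epgn, beside 1215, 4128, 4520 and 1807 bases of GENCODE M21 exons. Doubling any of these lengths would exceed those exons. Replicates differed by more than sampling noise (chi-square per degree of freedom 1.75 to 4.76).

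FPKM were divided by median-of-ratios factors (0.975 to 1.02), genes averaging at least 1 FPKM were kept (12611), and log2(FPKM + 0.1) of all 9 libraries was fitted by group with an intensity trend in limma 3.58.1 (R 4.3.3). Members under that filter had the exact permutation test. The fit was tested on simulated data in which far fewer genes changed than were called here. That test therefore does not cover the scaling or the error rate when so many genes change. The members, lists and rule for naming genes were chosen with earlier results of these data known. The rule named all members and their family, up to 3 called genes each way per list and the 3 closest genes. Not every gene it allows is named, and Timp3, Adam17 and Usp8 are named outside it. Nrdc was read as its older symbol Nrd1. Gene positions and promoters come from RefSeq (GRCm38.p6) and exon overlaps from GENCODE M21. Figures were drawn with matplotlib 3.10.9.

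Same-numbered replicates did not deviate together (r = -0.0790 to 0.111 over genes), so the numbers were not taken as pairs. Alternatives covered the pseudocount, the filter, scaling, the variance trend, the libraries fitted, the replicate block, limma-voom on recovered reads and each library left out.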

Additional observations from a re-analysis of the deposited data

Results flagged for a closer look

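For 4 members the change against control differed between day 3 and day 1, by the direct limma test of day 3 against day 1 on the log2 scale. The days also differ in harvest time, so recovery from peroxide and time in culture cannot be told apart here. The difference was -0.67 for Hbegf (adjusted p = 6.70e-07), whose day 3 libraries were lower than all day 1 libraries. It was 0.32 for Tgfa (adjusted p = 0.000220) and 0.23 for Erbb2 (adjusted p = 0.000268), both higher in all day 3 libraries. It was -0.17 for Nrg1 (adjusted p = 0.0391), which missed the threshold in 9 of 21 alternatives. The 2 changes against control share their control libraries. Groups of 3 libraries are too small for a search for single outlying libraries.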

How the results depend on the processing

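Over 21 alternatives, Hbegf, Tgfa and Erbb2 kept their direction and their side of the threshold in all 3 comparisons, as did Nrg1 against control. The log2 fold change on day 1 ranged from 0.70 to 0.79 for Hbegf over all of them, and from -1.18 to -1.12 for Tgfa when 1 library was left out. Members called against control on day 1 numbered 4, and 6 with a filter of 0.1 FPKM or none (Areg and Ereg then tested). Areg met the 0.1 FPKM filter only through day 1, the group tested. Its means were 0.0733 FPKM on day 3, 0.292 on day 1 and 0.00871 in control. Its call under that filter is therefore not independent of the filter. The number was 5 without day 1 replicate 2, without control replicate 1 or in limma-voom on recovered reads (Egfr). It was 7 in limma-voom on recovered reads with at least 10 reads over the libraries, a setting chosen after seeing the data. Areg, Ereg and Egfr passed there as well. Genes called on day 3 against control numbered 1742, 2675 under that setting, and 1031 to 1760 when 1 library was left out, fewest without day 3 replicate 1 (1041) or 3 (1031). The difference of Btc on day 1 was 0.12 without control replicate 1 and -0.37 without control replicate 3, and that of Erbb4 between the days was -0.029 with quantile normalization, the first and the last reversed; the cause was not tested. With FPKM as deposited, 3319 genes were higher and 4348 lower on day 1, against 3923 and 3916, and 661 were higher and 861 lower on day 3, against 929 and 813. Between the days that split was 3693 and 3187, against 3515 and 3577. A fit with a replicate block called 4, 3 and 4 members, as without it, and 7894, 1807 and 7167 genes. Low depth limits Areg, Btc and Epgn.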
